A study of Mus musculus with 6 samples.

Results

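Hormone-sensing luminal cells are the mammary epithelial cells that carry the receptors for estrogen and progesterone. The genes studied here are 10 genes of that program, followed through arrays of cells that were sorted as basal, the layer that lies outside the luminal cells. The list was chosen by name, with earlier results of these same arrays known, among them the genotype differences of Fgg and Stc2. For each gene the array row with exactly 1 gene symbol and the highest mean over the 6 arrays was taken. Of the 10 listed genes, 9 were found among the 22180 genes with such a row. Prlr, the prolactin receptor, was not analysed here.

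The arrays came from freshly isolated mammary basal cells of adult virgin female mice aged 8 to 14 weeks. The knockout group, Trp53 KO & Cdkn2a KO, is given as Trp53-/-, p16ink4a-/- and p19arf-/-, and the other group is wild type (WT). There were 3 arrays per genotype, labelled as biological replicates. Strain, background and any pooling of mice are not given in the sources used here. Cells had been stained for CD49f and CD24 before the sort, after bead depletion of CD45, CD31 and TER119 positive cells.

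In the adult gland, ovarian hormones act on luminal cells that express the estrogen receptor and the progesterone receptor. These cells rarely divide in response and instead release paracrine signals, among them RANKL, amphiregulin and WNT4, which act on neighbouring luminal progenitor and basal cells. FOXA1 and GATA3 are transcription factors of the luminal lineage that help the estrogen receptor reach its sites. Basal cells carry little estrogen receptor, so the genes are not part of the program that defines the sorted layer.

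The starts of several of these genes are shown because their signals moved together between arrays. The windows run from 250 bases before to 50 bases after the annotated start, read from RefSeq on build GRCm38.p6, 5′ to 3′ on the gene's strand. Capitals mark matches, on either strand, to the single arm of the estrogen response element (GGTCA), a forkhead motif (TGTTTAC) or a STAT motif (TTCNNNGAA). Esr1, which encodes estrogen receptor alpha, is shown at chr10:4611739-4612038 on the plus strand, the first of its starts in the table. Foxa1 is shown at chr12:57546062-57546361 on the minus strand and Pgr, which encodes the progesterone receptor, at chr9:8899583-8899882 on the plus strand. Fgg and Fgb, which encode chains of fibrinogen, lie on the same chromosome, with windows at chr3:83007474-83007773 on the plus strand and chr3:83049814-83050113 on the minus strand.
Esr1: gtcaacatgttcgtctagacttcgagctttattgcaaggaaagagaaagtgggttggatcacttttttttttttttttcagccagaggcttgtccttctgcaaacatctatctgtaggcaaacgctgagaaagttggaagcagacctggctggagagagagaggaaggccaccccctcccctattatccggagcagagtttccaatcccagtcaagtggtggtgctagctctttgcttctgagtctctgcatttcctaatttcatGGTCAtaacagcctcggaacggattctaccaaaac
Foxa1: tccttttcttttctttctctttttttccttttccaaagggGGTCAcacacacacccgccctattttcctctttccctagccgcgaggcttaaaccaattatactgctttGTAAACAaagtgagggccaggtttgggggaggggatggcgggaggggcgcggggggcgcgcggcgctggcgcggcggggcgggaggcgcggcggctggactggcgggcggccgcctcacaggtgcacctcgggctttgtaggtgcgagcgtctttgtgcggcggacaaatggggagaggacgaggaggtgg
Pgr: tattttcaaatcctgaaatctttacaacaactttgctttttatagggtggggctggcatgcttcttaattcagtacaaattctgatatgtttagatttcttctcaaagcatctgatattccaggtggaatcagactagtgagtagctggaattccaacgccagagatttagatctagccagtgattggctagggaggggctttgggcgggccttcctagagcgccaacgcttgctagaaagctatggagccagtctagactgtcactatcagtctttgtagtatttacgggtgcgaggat
Fgg: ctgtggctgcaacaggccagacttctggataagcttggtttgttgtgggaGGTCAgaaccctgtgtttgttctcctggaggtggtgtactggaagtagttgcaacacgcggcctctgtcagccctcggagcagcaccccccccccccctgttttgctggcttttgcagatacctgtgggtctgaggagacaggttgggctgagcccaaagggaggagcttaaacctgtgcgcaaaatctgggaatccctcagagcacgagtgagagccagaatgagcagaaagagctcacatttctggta
Fgb: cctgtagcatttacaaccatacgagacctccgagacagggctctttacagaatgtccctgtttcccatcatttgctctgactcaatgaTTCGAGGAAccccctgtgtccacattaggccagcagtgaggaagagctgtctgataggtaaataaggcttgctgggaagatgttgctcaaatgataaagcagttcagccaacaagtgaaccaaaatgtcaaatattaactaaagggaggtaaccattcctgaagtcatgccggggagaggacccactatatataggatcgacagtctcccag

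All 10 listed genes had at least 1 of 16 windows in the table, which holds 32851 windows of 300 bases. The single arm was found in 9 of the 16 windows and in 40.5% of all windows. It lay in a window of Cited1, Esr1, Fgg, Foxa1, Gata3, Greb1 and Stc2. The forkhead motif was found in windows of Foxa1 and Prlr, and in 3.65% of all windows. In Foxa1 it began at position -141 from the start. The STAT motif was found in another window of Esr1, in Prlr and, outside the list, in Fgb at position -162 and in Fga, the third fibrinogen chain gene, at position -234, and in 8.3% of all windows. Neither the full estrogen response element (both arms, 3 bases apart, which contains the single arm) nor the AGATAA motif of GATA factors nor the element for the progesterone receptor were found in the 16 windows. These 3 motifs were found in 0.07%, 11.2% and 0.475% of all windows. A match is a run of letters in a short window, and it is given as a description only.

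The values are log2 signals per array row. Rows have no common calibration, so levels are compared between arrays and not between genes. The median of an array was 5.22 to 5.39. Across rows, any pair of arrays had a Pearson r of 0.961 to 0.978. Of the deleted genes, Cdkn2a, which encodes p16Ink4a and p19Arf, read 6.25, 6.31 and 6.39 in knockout cells, against 6.42, 5.84 and 6.48 in WT cells. The groups overlapped and the difference was 0.07, with an interval of -0.37 to 0.52 (limma adjusted p = 1). The stretch of the gene that this row reads is not given in the sources used here. With Trp53 not analysed here either, the genotype labels were not checked by the signal of the deleted genes and every direction rests on the labels. Basal markers gave signal on every array, but no array of another cell type was at hand to set them against, so the basal label was not tested by them. Krt14, the basal keratin, lay between 13.21 and 13.27 in knockout cells and between 13.29 and 13.51 in WT cells, on arrays whose highest values were 13.78 to 13.87. Its groups did not overlap, and the difference of -0.12 did not pass (limma adjusted p = 1). Acta2, smooth muscle actin of the contractile basal cells, lay between 12.27 and 12.56 in knockout cells and between 12.33 and 12.53 in WT cells. The luminal keratin Krt18 gave signal too, between 10.61 and 11.21 in knockout cells and between 10.92 and 12.16 in WT cells.

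No hormone-sensing gene passed the genotype test, and in several of the genes the arrays of 1 genotype lay far apart. With limma over all 22180 genes, 0 of the 9 genes and 0% of all genes had an adjusted p under 0.05. At an unadjusted p under 0.05, 379 genes were lower and 357 higher in the knockout. The same replicate numbers occur in both genotypes, and with replicate as a block the 736 genes became 1112, again with 0 past the adjusted threshold. Of the 9 genes, 7 had a lower mean in the knockout, against 51.7% of all genes. Their median log2 difference, knockout minus WT, was -0.32, beside -0.0067 over all genes. The direction of the count and of the median rested on WT replicate 2. Without this array 4 of the 9 genes were lower and the median difference was 0.012. The difference of the mean of the 9 genes was then -0.18, against -0.40 with all arrays. In sorted bulk cells, fewer cells of a type and less RNA per cell cannot be told apart.

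Esr1 read 7.07, 7.22 and 6.57 in knockout cells, against 6.44, 7.98 and 7.44 in WT cells. WT cells held both the highest and the lowest of the 6 arrays, so the knockout range lay inside the WT range. Knockout minus WT, the log2 difference was -0.33 ± 0.36 (standard error) with a 95% interval of -1.15 to 0.48, and it did not pass (limma adjusted p = 1). It was 0.01 without WT replicate 2 and -0.76 without WT replicate 1.

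Pgr, itself a target of the estrogen receptor, read 5.35, 5.40 and 4.93 in knockout cells, against 4.36, 6.05 and 5.72 in WT cells. WT replicate 1 was again the lowest array and WT replicate 2 the highest. It differed by -0.15, with an interval of -1.01 to 0.71. It was 0.19 without WT replicate 2 and -0.66 without WT replicate 1. The Pgr values lay on both sides of the array medians of 5.22 to 5.39, so the row was dim on part of the arrays.

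Foxa1 read 6.15, 7.14 and 5.79 in knockout cells, against 6.15, 7.94 and 7.55 in WT cells. Knockout replicate 1 and WT replicate 1 read the same to the second decimal, while the other WT arrays lay above every knockout array. The genotype means differed by -0.85 on the log2 scale, which is 1.81 times as high in WT, with an interval of -1.93 to 0.22 (limma adjusted p = 1). It lay between -1.39 without WT replicate 1 and -0.49 without WT replicate 2. The unadjusted p was 0.106, and 0.0186 with replicate as a block, where the limma adjusted p was 0.915.

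Gata3 was read by 2 rows that went opposite ways. On the brighter row, the one kept, it read 7.82, 8.38 and 7.39 in knockout cells, against 7.64, 8.46 and 7.80 in WT cells, a difference of -0.11 with an interval of -0.77 to 0.56. On the other row it read 5.81, 5.68 and 5.84 in knockout cells, against 5.45, 5.06 and 5.57 in WT cells. There every knockout array lay above every WT array, by 0.42 between the means, and the rows correlated over the arrays with r of -0.60. The mean of both rows gave a difference of 0.15, so no direction is given for Gata3, which counts among the 7 lower genes through the kept row. Which transcripts each row reads is not given in the sources used here.

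Cited1, a transcriptional coregulator that binds the estrogen receptor, read 7.10, 7.67 and 6.97 in knockout cells, against 6.89, 8.03 and 7.78 in WT cells. The groups overlapped through WT replicate 1, the lowest array. The difference of -0.32 had an interval of -1.02 to 0.38, and it was -0.09 without WT replicate 2.

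Stc2, a secreted glycoprotein whose gene responds to estrogen, read 6.58, 6.70 and 6.27 in knockout cells, against 6.58, 7.61 and 7.21 in WT cells. WT replicates 2 and 3 lay above all knockout arrays and WT replicate 1 among them. The difference of -0.62 had an interval of -1.20 to -0.03 before correction and a limma adjusted p of 1. It was -0.38 without WT replicate 2.

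The secreted and target genes Tnfsf11 and Greb1 showed little variation. Tnfsf11, which encodes RANKL, the progesterone-induced paracrine signal, read 4.11, 4.22 and 4.22 in knockout cells, against 4.22, 4.29 and 4.03 in WT cells. All of these values lay below the array medians. The genotypes differed by 0.00, with an interval of -0.28 to 0.28. Greb1, a cofactor and target of the estrogen receptor, read 5.29, 5.47 and 5.42 in knockout cells, against 5.36, 5.34 and 5.29 in WT cells. The difference was 0.07, with an interval of -0.23 to 0.36, so a change in signal of more than 0.36 lay outside the interval in either direction. The Greb1 values lay close to the array medians of 5.22 to 5.39, so the interval bounds the signal of a dim row and not the expression of the gene. The standard deviations of Tnfsf11 and Greb1 over the 6 arrays, 0.0922 and 0.0729, were below the median of all genes, 0.208, and the other 7 genes were above it.

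**Figure D1:**
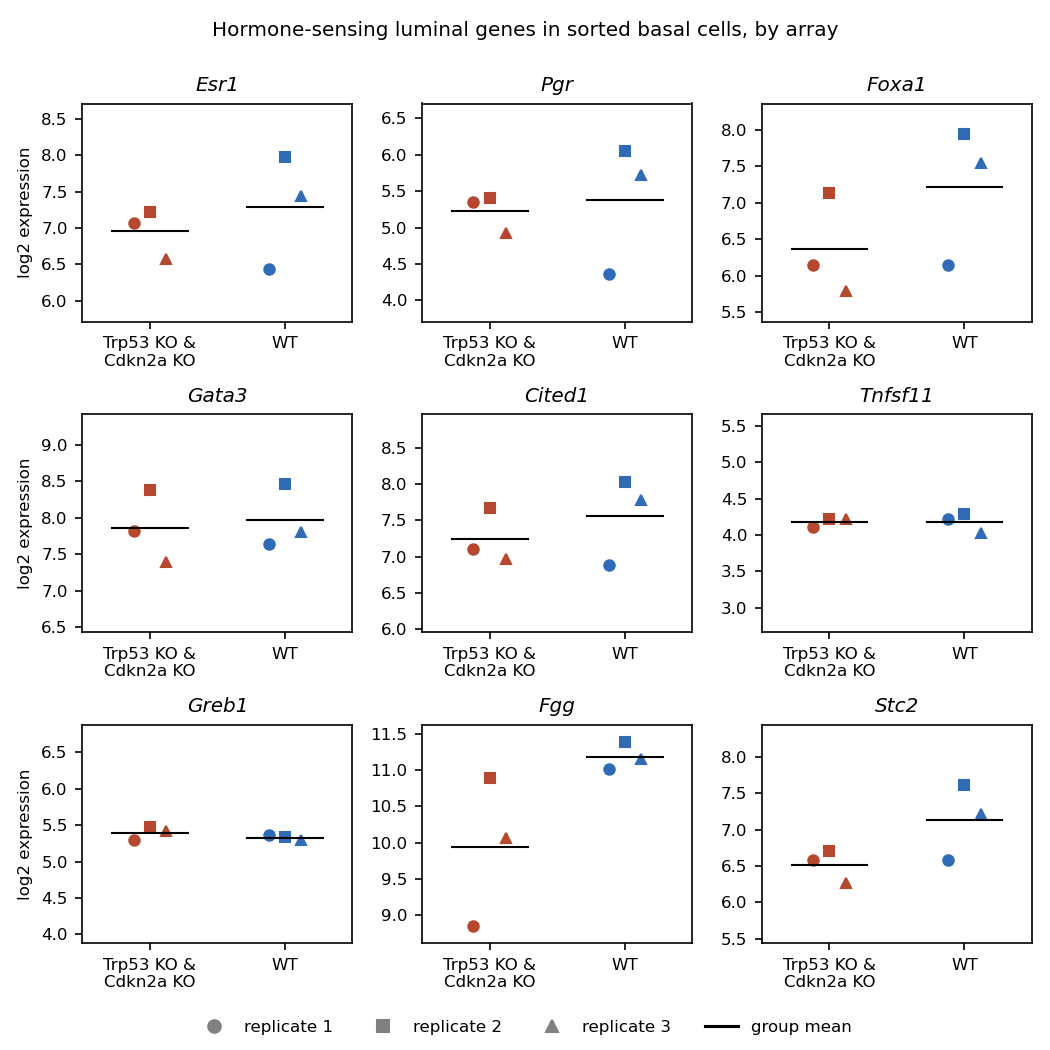
Log2 expression of each of the 9 genes (y axis, 3 log2 units in every panel) in Trp53 KO & Cdkn2a KO cells and WT cells, 1 point per array, with marker shapes for replicate numbers and a bar at the group mean. In 6 panels WT replicate 2 is the highest point and knockout replicate 3 or WT replicate 1 the lowest, and in the Fgg panel the groups do not overlap.

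Fgg was the one gene whose groups did not overlap, which held, in the lower direction, for 4.05% of all genes. It encodes the gamma chain of fibrinogen, the clotting protein made mainly by the liver, and is known as a marker of hormone-sensing mammary cells. It read 8.85, 10.89 and 10.07 in knockout cells, against 11.01, 11.39 and 11.15 in WT cells. The spread lay in the knockout arrays, with an SD of 1.03 beside 0.19 in WT cells (n = 3 each). The log2 difference was -1.25 with a standard error of 0.42, 2.37 times as high in WT, and it did not pass (limma adjusted p = 1, and 0.68 with replicate as a block). Same-numbered arrays differed by -2.16, -0.49 and -1.08. Without knockout replicate 1 the difference was -0.70, and without knockout replicate 2 it was -1.72. At an unadjusted p under 0.05 Fgg and Stc2 were lower, as were 1.71% of all genes, and with replicate as a block Foxa1 made 3. Earlier results had singled out Fgg and Stc2, so nothing is read from that count.

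Of all genes outside the list whose spread was at least the median, Fgb followed Fgg most closely, with r of 0.99 over the 6 arrays. Fgb encodes the beta chain of fibrinogen. It read 5.04, 8.04 and 6.51 in knockout cells, against 8.21, 8.86 and 8.23 in WT cells. The groups did not overlap and knockout replicate 1 was the lowest array, as for Fgg. The log2 difference was -1.90 ± 0.615 (standard error; limma adjusted p = 1, and 0.589 with replicate as a block). Same-numbered arrays differed by -3.17, -0.81 and -1.72. Fga, the alpha chain, was looked up after these values were seen. It read 3.58, 3.72 and 4.14 in knockout cells, against 4.01, 3.51 and 3.79 in WT cells, all below the array medians, with r of 0.03 to Fgg.

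**Figure D2:**
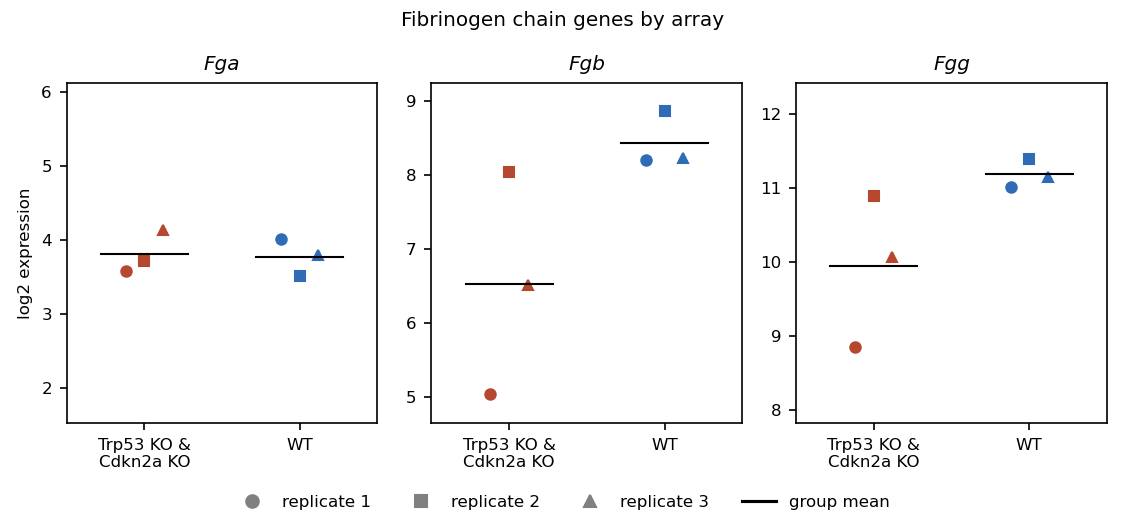
Log2 expression of the fibrinogen chain genes Fga, Fgb and Fgg (y axis, the same span of log2 units in each panel) in Trp53 KO & Cdkn2a KO cells and WT cells, 1 point per array, with a bar at the group mean. Fgb and Fgg have knockout replicate 1 lowest, at 5.04 and 8.85, and all WT arrays above all knockout arrays, while the Fga groups overlap.

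**Figure D3:**
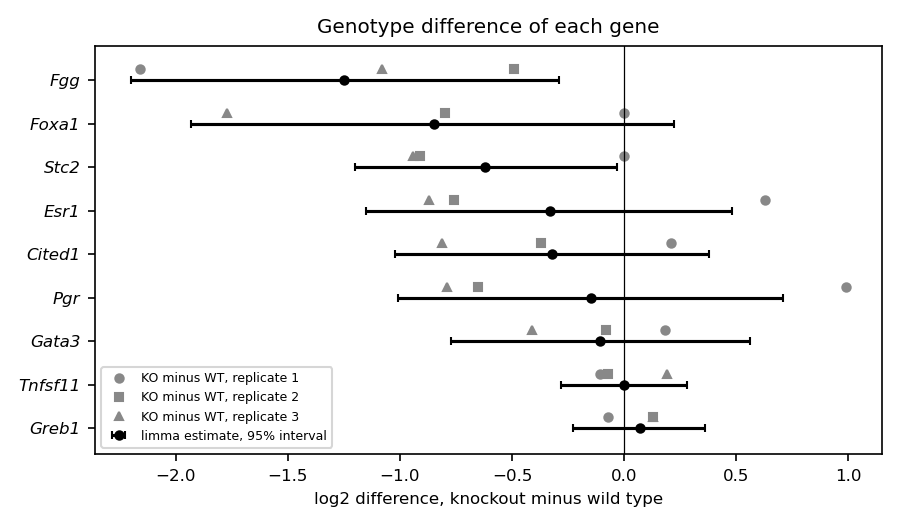
Log2 difference, knockout minus WT (x axis), of each gene, with the limma estimate and its 95% interval in black and the differences between same-numbered arrays as grey markers. The difference is above 0 for 5 of the 9 genes at replicate 1, and below 0 for 8 at replicate 2 and for 7 at replicate 3, and the intervals of Fgg and Stc2 alone leave out 0 before correction over all genes.

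The joint variation was strong among Esr1, Pgr, Foxa1, Gata3, Cited1 and Stc2, a set of 6 grouped after their values were seen. In each of the 6, the WT arrays ran in the order replicate 2, replicate 3, replicate 1 from high to low, and the knockout arrays in the order replicate 2, replicate 1, replicate 3. The mean of the 6 genes was 6.68, 7.08 and 6.32 on the knockout arrays, against 6.34, 7.68 and 7.25 on the WT arrays. Its range within WT cells, 1.33, and within knockout cells, 0.76, both exceeded the difference between the genotype means, -0.40. A range of single arrays and a difference between means are unlike measures, so these sizes are given as a description only. KO replicate 1 minus WT replicate 1 was between -0.00 and 0.99 in the 6 genes, while the differences lay between -0.91 and -0.08 for replicate 2 and between -1.77 and -0.41 for replicate 3.

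Over the 6 arrays, r between these 6 genes lay between 0.68 and 0.98 with a median of 0.89 over 15 pairs, and were at least 0.68 with a median of 0.93 after the genotype means were taken out. Esr1 and Pgr had r of 0.96, and Foxa1 and Cited1 of 0.98. Fgg followed less closely, with r of 0.67 to Foxa1 and 0.20 to Pgr. Greb1 had r between -0.41 and 0.18 to the 6 genes and Tnfsf11 between -0.13 and 0.34. Over all 36 pairs of the 9 genes, 30 were above 0 and the median was 0.59. The arrays share 1 normalization and the sort, and the genes are read on the same arrays, so these values describe the arrays and have no p.

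**Figure D4:**
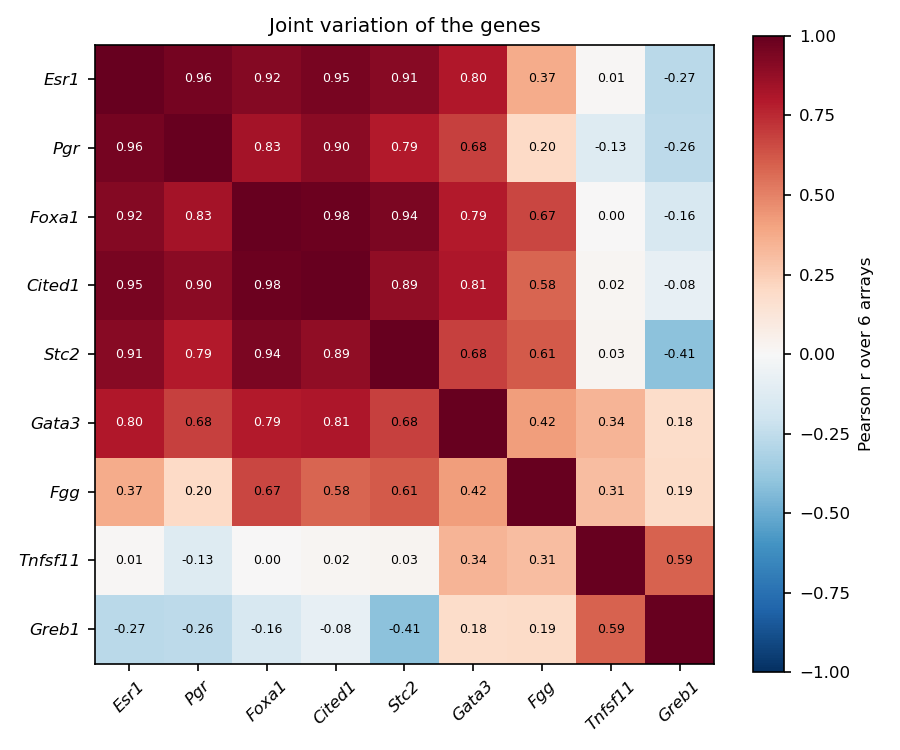
Pearson r over the 6 arrays (colour, -1 to 1, value printed in each cell) between each pair of the 9 genes. Esr1, Pgr, Foxa1, Cited1, Stc2 and Gata3 form a block between 0.68 and 0.98, with Fgg between it and the low values of Tnfsf11 and Greb1.

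The same order of arrays within each genotype was seen in the means of the other hormone-sensing genes and the general luminal markers. The mean of the luminal progenitor markers had it on the WT arrays only. The means of the basal markers, the dissociation stress genes and the estrogen receptor cofactors and targets had it on the knockout arrays only. Of 14 measured genes known from hormone-sensing luminal cells and outside the list, 13 were lower in the knockout, with a median log2 difference of -0.24 and 0 past the test. The difference of the list mean was -0.37, and -0.22 without WT replicate 2. Between the arrays numbered 1 it was 0.05. Their mean was 6.68, 6.80 and 6.46 on knockout arrays, against 6.63, 7.32 and 7.11 on WT arrays, and followed the mean of the 9 genes with r of 0.95 (rho of 0.94, and r of 0.86 without WT replicate 2 and knockout replicate 3). Wnt4, a progesterone-induced ligand for basal cells, read 7.51, 8.08 and 7.11 in knockout cells, against 7.40, 9.21 and 8.71 in WT cells, a difference of -0.88 with an interval of -1.85 to 0.10. Prom1, a surface marker of these cells, read 6.64, 6.92 and 6.05 in knockout cells, against 5.87, 8.21 and 8.54 in WT cells, with an interval of the difference of -2.37 to 0.37. In both genes WT replicates 2 and 3 lay above all other arrays, and the lowest array was knockout replicate 3 for Wnt4 and WT replicate 1 for Prom1. Tbx3, a transcription factor needed in mammary development, differed by -0.19. Areg, Calca and Ly6a were not analysed here.

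General luminal markers, which hormone-sensing cells share with other luminal cells, were lower in 18 of 18, with a median of -0.30 and 0 past the test. That count also leaned on WT replicate 2, since 13 of 18 were lower without it and the difference of the list mean was then -0.14, against -0.34 with all arrays. Between the arrays numbered 1 the list mean differed by 0.30, higher in the knockout. The mean of this list ranged from 8.21 to 8.63 on knockout arrays and from 8.21 to 9.19 on WT arrays, so the groups overlapped. It followed the mean of the 9 genes with r of 0.94 (rho of 0.83, and r of 0.84 without the same pair of arrays). The luminal keratin Krt8 read 11.26, 11.34 and 11.05 in knockout cells, against 11.01, 11.86 and 11.78 in WT cells, and its partner Krt18 differed by -0.61. Epcam, an epithelial adhesion protein that basal cells carry too, differed by -0.10. Krt8 and Krt18 had r of 0.91 and 0.92 with the mean of the 9 genes, and Epcam had r of -0.11.

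Markers of luminal progenitors, the luminal cells that lack the hormone receptors, were mixed. Of 15 measured, 9 were lower and 6 higher, with a median of -0.03 and a mean difference of 0.18, of opposite sign. The list includes the milk protein genes Csn2, Csn3, Lalba and Wap. Without WT replicate 2, 4 were lower and the median was 0.14. The list mean had r of -0.26 with the mean of the 9 genes, and its members differed in this. Kit, a receptor of luminal progenitors, differed by -0.19 and Aldh1a3, a retinal dehydrogenase, by -0.30, and these genes were highest on WT replicate 2, with r of 0.65 and 0.64 to the mean of the 9 genes. Elf5, the alveolar transcription factor, read 4.61, 4.61 and 5.28 in knockout cells, against 4.79, 4.81 and 4.63 in WT cells. Elf5 had r of -0.38. Basal markers had 12 of 21 lower, a median of -0.03 and a mean difference of 0.03, with means of 9.78 to 10.04 on knockout arrays and 9.81 to 9.89 on WT arrays. Their mean had r of 0.39 with that of the 9 genes. The named basal genes differed in this. Acta2 had r of 0.90 with the mean of the 9 genes over a range of 0.29 log2 units, and Krt14 had r of 0.81 over 0.30. Trp63, the basal lineage factor, had r of 0.24. Krt5 was not analysed here.

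**Figure D5:**
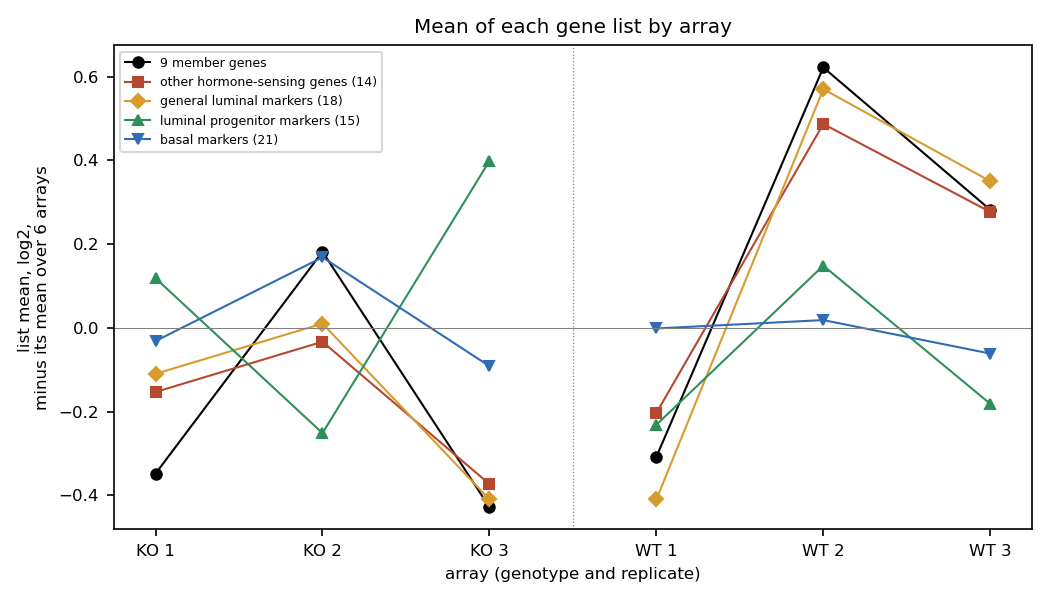
Mean log2 value of each gene list on each array minus the list's mean over the 6 arrays (y axis), for knockout and WT arrays in turn (x axis), with the number of genes in parentheses and lines joining arrays of 1 genotype for the eye only. The 9 genes, the other hormone-sensing genes and the general luminal markers are highest on WT replicate 2 and low on WT replicate 1 and knockout replicate 3, and the progenitor markers are highest on knockout replicate 3.

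The array median moved opposite to the genes. The mean of the 9 genes was 6.479, 7.009 and 6.402 on knockout arrays, against 6.517, 7.454 and 7.107 on WT arrays. The medians over all rows were 5.357, 5.300 and 5.339 on knockout arrays, against 5.386, 5.223 and 5.321 on WT arrays, with r of -0.88 to the mean of the 9 genes (rho of -0.71, and r of -0.87 without WT replicate 2 and knockout replicate 3). The standard deviation and the interquartile range over all rows of an array had r of 0.70 and 0.80 with that mean, and of 0.26 and 0.54 without the same pair of arrays. After quantile normalization, which gives every array the same distribution, the mean of the 9 genes was 6.46, 7.01 and 6.41 on knockout arrays, against 6.52, 7.42 and 7.11 on WT arrays. The median r between the genes was then 0.62. Of 9841 genes outside the list compared for likeness to the mean of the 9 genes, 501, or 5.09%, had r above 0.9. The part of RNA quality in the joint variation was not tested.

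Genes elsewhere in the hormone pathways were listed by pathway. With members of the list left out, the means of the estrogen, progesterone and prolactin lists had r of -0.06, -0.40 and -0.66 with the mean of the 9 genes. The values of the estrogen and progesterone lists were less steady than those of the other hormone-sensing genes and the general luminal markers. That of the prolactin list stayed negative. Without WT replicate 2 and knockout replicate 3 the estrogen, progesterone and prolactin lists had r of -0.36, 0.13 and -0.57. After the genotype means were taken out these were 0.40, 0.14 and -0.49. Among 16 genes of the estrogen receptor, its cofactors and targets, which include Greb1 and Pgr, 4 were lower and 12 higher in the knockout, with a median of 0.16 and 0 past the test. The coactivator Ncoa3 differed by 0.27, the corepressor Nrip1 by -0.18 and Esr2, estrogen receptor beta, by 0.16. In the progesterone and RANK chain, which includes Pgr and Tnfsf11, 9 of 11 were higher, with a median of 0.12 and 0 past the test. Tnfrsf11a, the RANK receptor, differed by 0.09. Axin2, a WNT target in basal cells, read 6.92, 7.80 and 6.83 in knockout cells, against 6.44, 6.21 and 6.46 in WT cells, a difference of 0.82 with an interval of 0.23 to 1.40 before correction (limma adjusted p = 1). The groups did not overlap, and knockout replicate 2 was the highest array.

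In the prolactin and STAT5 chain 10 of 13 were higher, with a median of 0.09 and 0 past the test. The signal carriers of this chain varied little. Stat5a, which the prolactin receptor activates, differed by 0.04 with an interval of -0.31 to 0.39, the kinase Jak2 by -0.05 and the feedback inhibitor Socs2 by 0.07. The mean of the chain was 7.01 to 7.45 on knockout arrays and 6.65 to 6.86 on WT arrays, and the list holds milk protein genes.

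Markers of other cell types and of cell state were read beside the 9 genes, and in each of these lists 0 genes passed the test. Of all genes, 48.3% had a higher mean in the knockout. Fibroblast markers were higher in 12 of 12, with list means of 7.14 to 7.19 on knockout arrays and 6.55 to 6.90 on WT arrays, and adipocyte markers in 5 of 7, with 5.74 to 5.82 on knockout arrays and 5.50 to 5.57 on WT arrays. The median difference of the fibroblast markers was 0.13, below the 0.40 of their list mean, and for adipocyte markers these were 0.13 and 0.26. Without WT replicate 3, 10 of the 12 fibroblast markers were higher and their median was 0.07. Immune markers were higher in 6 of 10, close to the share of all genes and with overlapping groups, with list means of 5.03 to 5.17 on knockout arrays and 4.90 to 5.10 on WT arrays. Endothelial markers were likewise higher in 6 of 10 with overlapping groups, with 5.39 to 5.46 on knockout arrays and 5.24 to 5.53 on WT arrays. Ptprc, which encodes CD45, lay between 3.35 and 3.75 in knockout cells and between 3.28 and 3.43 in WT cells, and Adipoq between 4.18 and 4.34 in knockout cells and between 4.13 and 4.49 in WT cells, all below the array medians. Col1a1 differed by 0.13 and Pecam1, which encodes CD31, by 0.37. The immune list mean had r of -0.83 with the mean of the 9 genes, the endothelial list of -0.72, and the fibroblast and adipocyte lists of -0.54 each, while Adipoq alone had r of 0.48. The erythroid list had 0 measured genes. Mitosis genes were lower in 17 of 17, with list means of 5.01 to 5.43 on knockout arrays and 5.05 to 6.31 on WT arrays, and dissociation stress genes were higher in 18 of 18, with 9.46 to 10.60 on knockout arrays and 9.21 to 10.03 on WT arrays. Without WT replicate 3, 11 of the 17 mitosis genes were lower and their median moved to -0.10, against -0.36 with all arrays. The median of the stress genes was 0.39 with all arrays, 0.23 without WT replicate 3 and 0.07 without knockout replicate 2. The r of these lists with the mean of the 9 genes was 0.08 and 0.21. The part of any of these lists in the values of the hormone-sensing genes was not tested.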

How the data were processed

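RNA of sorted basal cells was measured on 6 whole-transcript arrays. Per the submitters' processing notes the deposited log2 values were made with RMA and Transcriptome Analysis Console 4.0, where RMA sets the arrays to a common distribution after background correction and gives 1 value per probe set. An aligner or genome build is not given in the sources used here, and detection calls were not used here. Arrays have no read depth, so the number of arrays limits the precision.

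Of 41345 rows, 23521 had exactly 1 gene symbol in the platform annotation and 1814 several. The row of highest mean was kept for the 1082 genes with several rows, which left 22180 genes. The genotype test was that of limma 3.58.1 under R 4.3.3, with lmFit and eBayes (trend on). It was two-sided, with p-values adjusted by Benjamini-Hochberg over all genes at a threshold of 0.05. Differences are knockout minus WT with limma's 95% interval. The fit was tested on simulated data. P-values set the difference between the genotype means against the spread between these arrays within a genotype.

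The members, the gene lists and the named genes were chosen with earlier results of these data known. Named were all members, a set of genes picked by name for each list, and the genes of highest or lowest Pearson r over the 6 arrays with the mean of the members or with 1 member, leaving out predicted genes and genes of spread below the median. Motifs were searched in RefSeq promoter windows.

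Arrays that carry the same replicate number deviated together from their genotype means, with r across genes of 0.121, 0.250 and 0.127, all above 0.1. For this reason the fit with replicate as a block is given where it changed a count by more than 1.5 times. The labels do not say what a number shares, and WT replicate 1 correlated with knockout replicate 3 at 0.130. The alternatives were a prior with no trend, weighted arrays, quantile normalization, median centring, no dim genes, averaged rows, the block, and fits that left out each array in turn.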

Additional observations from a re-analysis of the deposited data

How the results depend on the processing

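No gene passed an adjusted p of 0.05 under any of the 13 alternative fits, the smallest adjusted p over all of them being 0.0749. At an unadjusted p under 0.05 the count was 736, and 1112 with replicate as a block. The pairing by replicate number changed no adjusted call of the 9 genes, while at an unadjusted p under 0.05 it made 3 of 2, adding Foxa1. The luminal list differences without each array were chosen after seeing the data. Leaving out 1 array, the median member difference lay between -0.66 and 0.012, with the only turn of sign without WT replicate 2, the count of lower members between 4 and 8 of 9, the difference of the mean member level between -0.65 and -0.18, and the median r between members between 0.42 and 0.69. That r was 0.38 when the rows of Gata3 were averaged. The log2 difference of Esr1 lay between -0.76 and 0.012, of Pgr between -0.66 and 0.19, of Gata3 between -0.36 and 0.14 and of Tnfsf11 between -0.073 and 0.054. With the rows averaged Gata3 was at 0.15, and Tnfsf11 was at -0.0074 after quantile normalization and -0.021 after median centring. The other 5 members kept their sign under every alternative that was run. The causes were not tested. Tnfsf11 left no value under the filter on dim genes. Dim rows such as this limit what a small difference can show.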

Other observations

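Genes most like the mean of the 9 hormone-sensing genes over the 6 arrays were Phkb, a subunit of phosphorylase kinase, with r of 0.995, Cib1 with 0.995, Dennd6a with 0.993, Adck2 with 0.992 and Sytl1 with 0.992. Phkb read 6.76, 7.15 and 6.74 in knockout cells, against 6.78, 7.56 and 7.22 in WT cells. Most opposite were Fam133b with r of -0.991, Luzp1 with -0.991, Nid1, a basement membrane protein, with -0.989, Olfr1197 with -0.988 and Mir3058 with -0.986. Nid1 read 10.49, 9.51 and 10.71 in knockout cells, against 10.36, 9.03 and 9.35 in WT cells, so it was lowest on WT replicate 2 and high on WT replicate 1.

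For single genes the closest were Ap1s1 for Esr1 with r of 0.997, Lce6a for Pgr with 0.993, Cpt2, a mitochondrial carnitine palmitoyltransferase, for Foxa1 with 0.998, Lrrc49 for Gata3 with 0.995, Cldn6, a claudin, for Cited1 with 0.998, Arg2, an arginase, for Stc2 with 0.998, Ncf4 for Tnfsf11 with 0.987 and Vmn2r113 for Greb1 with 0.988. Arg2 read 6.86, 7.11 and 6.51 in knockout cells, against 6.92, 8.56 and 7.86 in WT cells. Lce6a and Vmn2r113 lay below the array median on every array. Each value is given as a description of these arrays with no p.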
